A study of Mus musculus with 17 samples.

Results

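Axin2 encodes a scaffold protein of the complex that marks beta-catenin for destruction, and its own gene is a target of beta-catenin and the TCF/LEF factors, so that its transcript is widely read as a negative feedback signal of the canonical Wnt pathway. Tcf1 is one of these factors. It is the main one of thymocytes together with Lef1, and both can repress target genes when beta-catenin is not bound. The thymic lymphomas of Tcf1-/- mice were divided here by their Axin2 signal. Of the 8 lymphomas among the 17 thymi of the series, 3 had a log2 signal above 9 on the Axin2 probe set with the higher mean and are called Axin2-high (lymphomas 6, 7 and 8), and the other 5 are called Axin2-low (lymphomas 1 to 5). The numbers are those of the tumor mice in the sample titles. The sets were chosen by this measured Axin2 signal, and the division is not a grouping of the study.

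All 8 lymphomas came from C57Bl/6 mice homozygous for the Tcf1 deltaVII allele (deltaVII/deltaVII), carried in the germline and therefore by every cell of the tissue. Arrays of 4 Tcf1-/- thymi without a tumor, of the same strain and allele, and of 5 heterozygous Tcf1+/- thymi (wt/deltaVII) were used for reference levels only. The labels name homogenized thymus tissue as the source of the RNA and the study's methods name thymocytes, 1 mouse per array, so whether stroma was removed is not settled. No sorting of cells and no treatment is named for these arrays, and the labels give neither age nor stage of the lymphomas. Values are log2 signals per probe set after Robust Multichip Average (RMA), by which the authors corrected background, equalized the arrays and summarized the probes. In such bulk RNA fewer cells of a type and less RNA per cell cannot be told apart.

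Lymphomas 1 and 2 stood apart as arrays. The interquartile range of their log2 values was 3.06 and 2.92, against 3.48 to 3.75 in the other 6 lymphomas, and Tcf1+/- arrays 1 and 2 had the same narrow range (2.97 and 2.96). Both lymphomas were Axin2-low, so the comparison was also made without them, as 3 against 3. The T-cell label held in all 8 lymphomas: the 8 T-cell markers measured all exceeded their array's 40th percentile in each of them, and their summed signal, in log2 units, was 15.49 to 15.60 in Axin2-high and 15.31 to 15.44 in Axin2-low lymphomas. Transcripts of the Y chromosome were at a mean log2 signal of 8.11 in lymphoma 6 and 7.97 in lymphoma 4, 1 lymphoma of each set, and at 3.33 to 3.69 in the other 6. These are separate mice with 1 array each, and the number of arrays limits the precision of every value.

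Axin2 stood at 10.27, 10.17 and 9.97 in lymphomas 6, 7 and 8 and 7.57, 7.87, 7.73, 7.38 and 6.79 in lymphomas 1 to 5. The member nearest to the threshold from above was lymphoma 8 and the nearest from below was lymphoma 2, and no lymphoma lay between 7.87 and 9.97. The mean was 10.14 ± 0.15 (SD, n = 3) in Axin2-high and 7.47 ± 0.42 (SD, n = 5) in Axin2-low lymphomas. The range was 6.77 to 6.80 in Tcf1-/- thymi without a tumor and 6.88 to 7.52 in Tcf1+/- thymi, so the Axin2-low lymphomas lay close to the tumor-free thymi while the Axin2-high lymphomas lay above all 14 other arrays. These values chose the sets and are given with no test. A dimmer probe set of Axin2, not used for the division, did not separate them. It was at 4.91, 5.78 and 4.46 in lymphomas 6, 7 and 8 and at 5.36, 5.2996, 4.23, 4.70 and 4.00 in lymphomas 1 to 5.

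**Figure D1:**
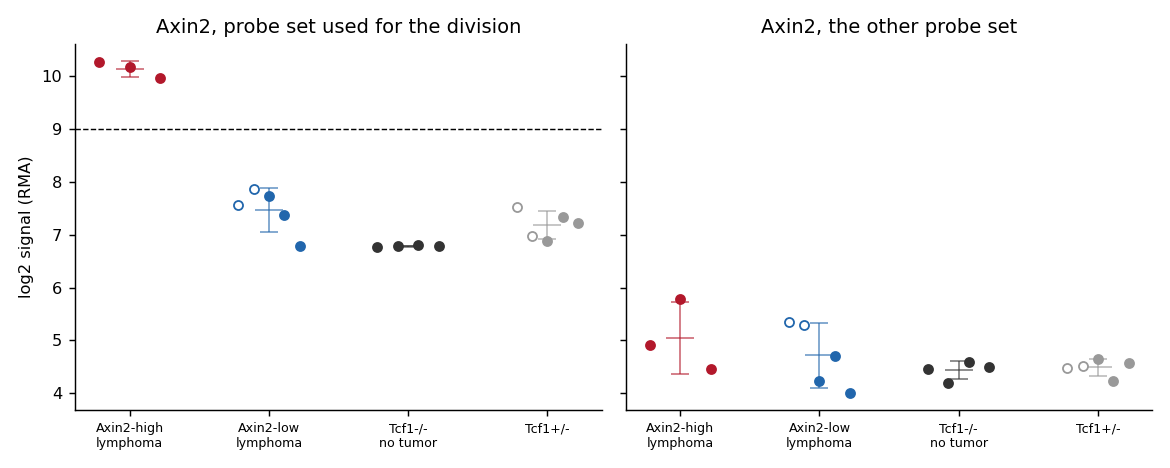
Log2 signal (RMA) of the 2 Axin2 probe sets on the y axis, by group on the x axis, with 1 point per array, the mean as a horizontal line and the SD as a bar. Open circles are the 4 arrays with a narrow range of values (lymphomas 1 and 2, Tcf1+/- 1 and 2), and the dashed line is the threshold of 9 that placed lymphomas 6, 7 and 8 (9.97 to 10.27) in the Axin2-high set.

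The Axin2 promoter is shown because Axin2 divides the lymphomas. The 250 bases before its RefSeq transcription start (build GRCm38.p6, chr11:108920099-108920348, plus strand, 5′ to 3′) were searched on both strands for the TCF/LEF motif, spelled CTTTGAA or CTTTGAT, whose matches would be in capitals:
Axin2: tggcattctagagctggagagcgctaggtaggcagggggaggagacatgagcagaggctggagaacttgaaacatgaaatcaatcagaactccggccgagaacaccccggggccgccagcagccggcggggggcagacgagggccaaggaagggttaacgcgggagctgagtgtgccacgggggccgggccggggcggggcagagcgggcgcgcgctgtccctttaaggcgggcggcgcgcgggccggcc
The window held neither spelling. Among all 32851 promoter windows of this length in the RefSeq table, 7.48% held at least one, and no match says only that these letters are not in this window.

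The first question was which other genes differ with Axin2 in these lymphomas. Of 13447 genes tested with limma, 5 were higher in the Axin2-high lymphomas at an adjusted p under 0.05 (0.0372% of genes tested) and 0 were lower. At an unadjusted p under 0.05, 909 were higher (6.76%) and 258 lower (1.92%), together 8.68%. The values of the sets did not overlap for 961 genes (7.15%), of which 733 were higher (5.45%) and 228 lower (1.7%) in the Axin2-high set. A log2 difference of 1 or more was seen for 587 genes with the higher mean in Axin2-high (4.37%) and 159 with the lower (1.18%). The median difference over all genes tested was 0.07. An exact two-sided Mann-Whitney U test called 0 genes after adjustment. Its smallest p with 3 against 5 arrays is 0.0357, which the 961 genes without overlap reached. With 961 of 13447 genes at that p, none could pass the adjustment, so the 0 calls say nothing about any gene.

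Khdc1a, which encodes a KH domain protein, had the smallest adjusted p of the 5. Its log2 signal was 7.41, 8.64 and 7.91 in lymphomas 6, 7 and 8 and 4.199, 4.53, 4.19, 4.71 and 3.91 in lymphomas 1 to 5, so each Axin2-high lymphoma exceeded each Axin2-low one by at least 2.70. The difference was 3.68 (95% interval 2.99 to 4.37, limma adjusted p = 0.00916). All 5 Axin2-low values were under the 40th percentile of their arrays (4.68 to 4.98), so the gene entered the test through the Axin2-high set alone and the size of the difference is relative to dim signals. Lymphomas 1, 3 and 5 lay below the range of the tumor-free thymi and lymphomas 2 and 4 within it, since Khdc1a was at 4.45 to 8.80 in Tcf1-/- thymi without a tumor and 4.22 to 5.89 in Tcf1+/- thymi. Prxl2a, a peroxiredoxin-like protein, was at 7.79, 8.60 and 8.32 in lymphomas 6, 7 and 8 and 4.70, 5.77, 4.92, 5.19 and 5.11 in lymphomas 1 to 5. It rose by 3.10 (95% interval 2.45 to 3.75, limma adjusted p = 0.0122), and a further Prxl2a probe set separated the sets as well, with a difference of 2.65, while another was under the 40th percentile in all 8 lymphomas.

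Itprid2, which encodes a protein that interacts with inositol trisphosphate receptors, differed through low values in the Axin2-low lymphomas. It was at 7.07, 7.53 and 7.10 in lymphomas 6, 7 and 8 and 4.67, 5.00, 5.53, 5.13 and 5.15 in lymphomas 1 to 5, a difference of 2.14 (95% interval 1.61 to 2.67, limma adjusted p = 0.033). All 9 tumor-free thymi were at 6.46 to 8.42, above all 5 Axin2-low lymphomas and around the Axin2-high ones. Irs1 and Cfap157 showed the opposite arrangement, with the Axin2-high lymphomas above every other array. Irs1 encodes the substrate that passes signals on from the insulin and insulin-like growth factor receptors. It was at 6.30, 7.48 and 6.55 in lymphomas 6, 7 and 8 and 4.58, 4.66, 4.42, 4.27 and 4.42 in lymphomas 1 to 5 and at 3.92 to 4.93 in the tumor-free thymi, and rose by 2.31 (95% interval 1.68 to 2.93, limma adjusted p = 0.0394). Cfap157, a gene of cilia and flagella, was at 5.97, 6.15 and 6.46 in lymphomas 6, 7 and 8 and 4.39, 4.22, 3.76, 3.79 and 4.43 in lymphomas 1 to 5 and at 3.58 to 4.19 in the tumor-free thymi, and rose by 2.07 (95% interval 1.54 to 2.61, limma adjusted p = 0.0348). As for Khdc1a, all 5 Axin2-low values of Irs1 and of Cfap157 were under the 40th percentile, and both genes entered the test through the Axin2-high set alone. In the fit of all 18192 genes without this filter the same 5 genes were called (limma adjusted p = 0.0138 for Khdc1a, 0.0478 for Irs1 and 0.0343 for Cfap157).

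Without lymphomas 1 and 2, 4 of the 5 genes passed again and Irs1 had a difference of 2.41 at an adjusted p of 0.0545 in limma. Khdc1a passed in all 8 fits that left out 1 lymphoma, with differences of 3.35 to 3.97, whereas Prxl2a passed in 4, Itprid2 in 3, Cfap157 in 2 and Irs1 in 0 of them (limma adjusted p up to 0.181), with differences of 1.94 or more throughout. A single gene was called without lymphoma 4, 5 or 7, and 10 were called without lymphoma 2.

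**Figure D2:**
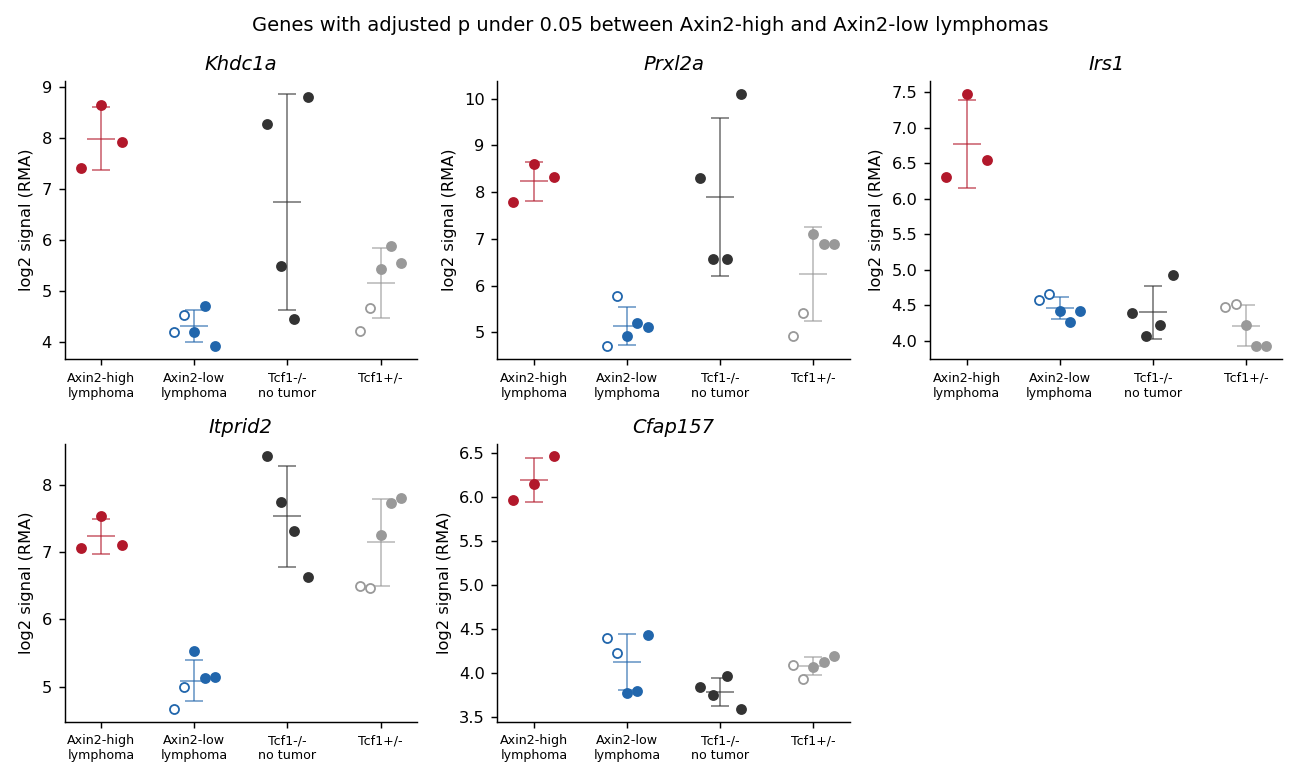
Log2 signal (RMA) on the y axis of the 5 genes called between the sets, by group on the x axis, with 1 point per array, the mean as a horizontal line and the SD as a bar. Open circles are lymphomas 1 and 2 and Tcf1+/- 1 and 2. In each panel the 3 Axin2-high lymphomas lie above the 5 Axin2-low ones, and for Irs1 and Cfap157 they lie above all 9 tumor-free thymi as well.

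The 15 highest and 15 lowest differences, unnamed transcripts left out, were chosen among genes whose values did not overlap between the sets, with the 5 called genes first. These 15 lowest genes and the other 10 of the highest did not pass the test and are described by their values. Of the 15 highest genes, 6 were above the 40th percentile in the Axin2-high lymphomas alone (Khdc1a, Irs1, Cfap157, Lhfp, Map2 and Zfp820), and of the 15 lowest, 1 was above it in the Axin2-low lymphomas alone (Cldn34c1). These 7 entered the test through the set where they are high, and their differences are relative to signals under that percentile. Among all genes tested, 20 were above it in the Axin2-high set alone and 73 in the Axin2-low set alone. Lhfp, a tetraspan membrane protein, had a difference of 4.24 (standard error 0.89, limma adjusted p = 0.246). It was at 7.69, 11.00 and 6.01 in lymphomas 6, 7 and 8, but at 3.87 to 4.12 in the 5 Axin2-low lymphomas and at 3.84 to 4.59 in the 9 tumor-free thymi. Signal above the level of the tumor-free thymi was thus seen in the Axin2-high lymphomas alone among these arrays, at a level that varied widely between them. Map2, a microtubule-associated protein of neurons, had the same arrangement, at 7.61, 7.58 and 5.32 in lymphomas 6, 7 and 8 against 3.02 to 3.71 in the Axin2-low set (difference 3.43, limma adjusted p = 0.0856). Tktl1, a transketolase-like protein, was at 7.81, 9.23 and 8.02 in lymphomas 6, 7 and 8 and 6.13, 4.56, 4.81, 4.35 and 4.38 in lymphomas 1 to 5 (difference 3.51, limma adjusted p = 0.0563), and passed the test without lymphomas 1 and 2 (3.84, adjusted p = 0.0297).

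Of the 15 highest genes, 9 had all 3 Axin2-high lymphomas above all 9 tumor-free thymi (Irs1, Cfap157, Lhfp, Tktl1, Map2, Fam110b, Etv5, Iqch and Trnp1). For 2, Itprid2 and Tsc22d1, it was instead the Axin2-low lymphomas that lay below all 9. Tsc22d1, a leucine zipper protein induced by TGF-beta, was at 10.78, 11.49 and 10.57 in lymphomas 6, 7 and 8 and 8.70, 4.81, 6.93, 8.65 and 7.72 in lymphomas 1 to 5 and at 9.95 to 11.04 in the tumor-free thymi (difference 3.59, limma adjusted p = 0.281). The interferon-inducible GTPase gene Iigp1 was at 9.62, 9.45 and 7.74 in lymphomas 6, 7 and 8 and 5.301, 4.55, 7.17, 5.87 and 4.89 in lymphomas 1 to 5 (difference 3.38, limma adjusted p = 0.206). Fam110b, the zinc finger gene Zfp820, Iqch and Trnp1 differed by 3.24, 3.002, 2.93 and 2.87 (limma adjusted p = 0.281, 0.108, 0.233 and 0.114).

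Of Axin2 and the 30 genes with the highest and lowest differences, 21 have promoters in the RefSeq table, in 30 windows. The TCF/LEF motif, searched as above, was found in 1 of these windows, that of Tsc22d1, where it ended 2 bases before the annotated start. It is shown (build GRCm38.p6, chr14:76414711-76414960, plus strand, 5′ to 3′) with the motif in capitals:
Tsc22d1: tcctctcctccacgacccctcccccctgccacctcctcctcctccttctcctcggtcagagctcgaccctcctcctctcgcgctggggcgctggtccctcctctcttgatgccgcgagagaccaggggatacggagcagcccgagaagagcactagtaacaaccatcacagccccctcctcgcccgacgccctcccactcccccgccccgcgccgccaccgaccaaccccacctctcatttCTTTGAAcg
A match is a description of the sequence and not a binding site. Of the 5 called genes, 3 had a window, and the motif was in 0 of them.

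The lowest differences were smaller. Cldn34c1, a gene of the claudin family, was at 4.76, 3.82 and 4.00 in lymphomas 6, 7 and 8 and 6.38, 5.95, 6.53, 7.25 and 7.32 in lymphomas 1 to 5 (difference -2.49, 95% interval -3.32 to -1.66, limma adjusted p = 0.0912). The interferon-inducible growth suppressor Samd9l was at 5.90, 4.94 and 5.07 in lymphomas 6, 7 and 8 and 6.00, 6.19, 8.14, 8.66 and 8.52 in lymphomas 1 to 5, with lymphomas 1 and 2 next to the Axin2-high set and lymphomas 3, 4 and 5 clearly higher (difference -2.20, limma adjusted p = 0.415). All 8 lymphomas were below the 9 tumor-free thymi for Samd9l (8.68 to 11.75). For 9 of the 15 lowest genes all 3 Axin2-high lymphomas were below every tumor-free thymus. Besides Samd9l these were Rcn1, a calcium-binding protein of the endoplasmic reticulum (-2.002), Prrc1 (-1.95), the ubiquitin ligase Nedd4l (-1.81), Lypd6b (-1.75), Pbxip1 (-1.69), the cap-binding protein Eif4e3 (-1.68), Rsrp1 (-1.52) and Wdr78 (-1.48), with the log2 difference in parentheses. H3f3a, Chrna9, Cep295, Trpc2 and Camk1g completed the 15, with differences of -1.87, -1.74, -1.54, -1.52 and -1.48. Without lymphomas 1 and 2, Cldn34c1, Samd9l, Prrc1 and Lypd6b passed the test, and fell by 2.84, 3.14, 2.48 and 2.47 (limma adjusted p = 0.0357, 0.0248, 0.0191 and 0.0348).

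Of the 30 genes, 14 had further probe sets, 22 in all, above the 40th percentile in at least 3 lymphoma arrays. In 21 of these the difference had the same sign, the exception being 1 of Prrc1 (0.33), and in 15 the sets did not overlap either.

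**Figure D3:**
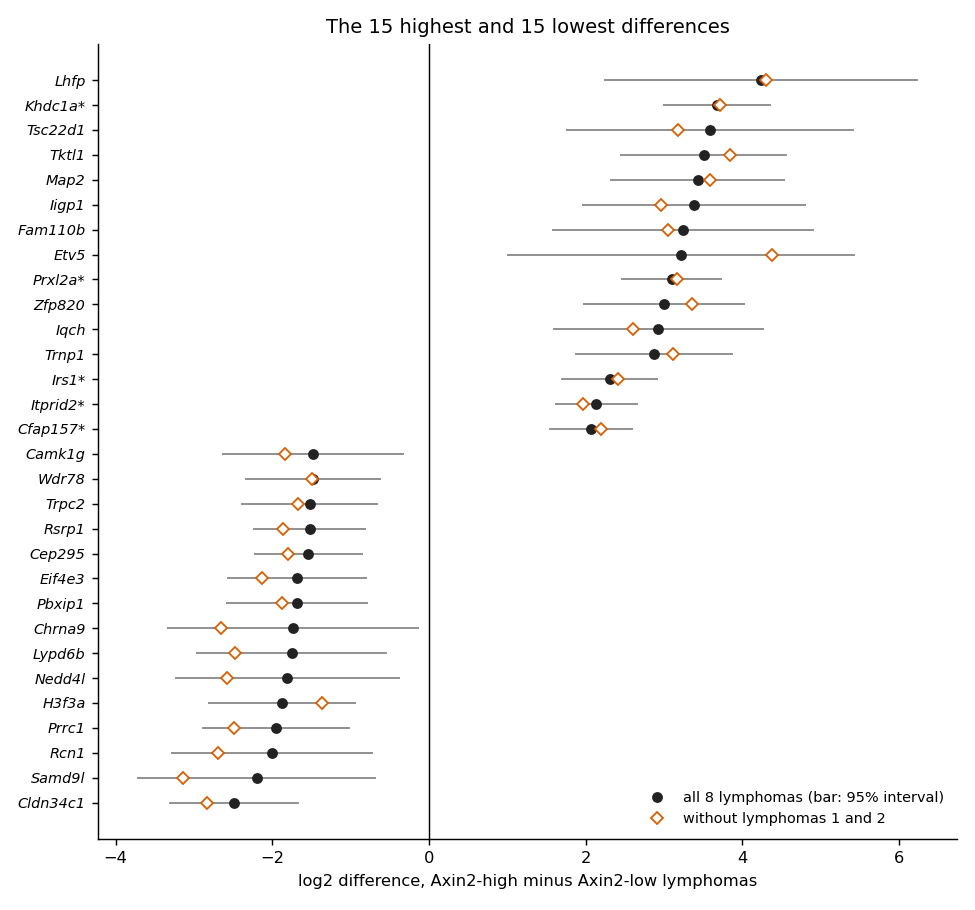
Log2 difference, Axin2-high minus Axin2-low, on the x axis for the 15 highest and 15 lowest genes on the y axis, with all 8 lymphomas (black points, 95% interval as a bar) and without lymphomas 1 and 2 (open diamonds). Asterisks mark the 5 genes with an adjusted p under 0.05. All 30 keep their sign, which follows from values that do not overlap, and Etv5 (3.22 and 4.38) and Samd9l (-2.20 and -3.14) show how far lymphomas 1 and 2 can move a difference.

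In the comparison without lymphomas 1 and 2, 31 genes passed (0.231% of 13447), of which 19 rose in the Axin2-high set (0.141%) and 12 fell (0.0892%). The 2 genes that fell most were named after their values had been seen. Ddc, the decarboxylase that forms dopamine and serotonin, was at 3.78, 4.00 and 3.69 in lymphomas 6, 7 and 8 and at 10.45, 10.28 and 9.83 in lymphomas 3, 4 and 5, and fell by 6.37 (limma adjusted p = 0.000292). Tcf1-/- thymi without a tumor were at 8.61 to 10.10, as high as lymphomas 3 to 5 or nearly so, and Tcf1+/- thymi at 4.24 to 5.71. Lymphomas 1 and 2, however, were at 4.16 and 3.92, on the side of the Axin2-high set. Fgf13, an intracellular protein of the fibroblast growth factor family, was at 4.58, 4.36 and 3.87 in lymphomas 6, 7 and 8 against 10.93, 10.22 and 10.46 in lymphomas 3, 4 and 5, and fell by 6.27 (limma adjusted p = 0.000763). Lymphoma 1 had 8.81 and lymphoma 2 had 3.78, so 1 of them lay on each side. All 3 Axin2-high values of Ddc and of Fgf13 were under the 40th percentile, and Fgf13 was in all 9 tumor-free thymi at 8.83 to 10.03.

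Among the genes that rose without lymphomas 1 and 2, also named after their values had been seen, were Ctnnd1, which encodes the cadherin-bound p120 catenin, and Alcam, an adhesion molecule of leukocytes. Ctnnd1 was at 8.80, 8.84 and 8.56 in lymphomas 6, 7 and 8 and 7.28, 7.30, 5.20, 5.42 and 5.03 in lymphomas 1 to 5, with lymphomas 1 and 2 between the other 2 levels, and rose by 3.51 (limma adjusted p = 0.00152, against 2.69 and 0.263 with all 8). Alcam was at 10.20, 9.15 and 9.49 in lymphomas 6, 7 and 8 and 6.45, 9.35, 4.64, 5.59 and 5.18 in lymphomas 1 to 5 and rose by 4.48 (limma adjusted p = 0.00991). The Ras pathway inhibitor Spred1 was at 8.74, 8.84 and 9.21 in lymphomas 6, 7 and 8 and 5.93, 8.00, 6.02, 6.71 and 5.45 in lymphomas 1 to 5, and rose by 2.87 without lymphomas 1 and 2 (limma adjusted p = 0.0366). Of the 31 genes, 15 had both lymphomas 1 and 2 nearer to the mean of the Axin2-high set than to that of lymphomas 3, 4 and 5, 6 had both nearer to the latter, and 10 had 1 on each side. The fit that chose the 31 left these lymphomas out, and only 4 of the 31 also passed with all 8. How far this choice shaped the count was not tested, so the count describes the genes chosen only. For 20 of the 31 the values of all 8 lymphomas did not overlap between the sets, beside 7.15% of all genes tested. Lymphomas 3 to 8 had already chosen these genes, so this is not a separate result. Whether the position of lymphomas 1 and 2 came from their arrays or from the lymphomas was not tested.

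The question of whether other Wnt genes differ with Axin2 was addressed with a list of Wnt feedback and target genes, Axin2 left out. Of its 29 members tested, 0 passed in limma (smallest adjusted p = 0.469), and 2 had an unadjusted p under 0.05, both higher. Among all genes tested, 6.76% were higher and 1.92% lower at that unadjusted p, shares that stand beside the counts of every list. The median difference of the Wnt target list was 0.05, beside 0.07 for all genes tested, and the members ran from -1.82 to 1.84. The values of 1 member, Myc, did not overlap between the sets (3.45% of the list, beside 7.15% of all genes). Myc, the growth-promoting transcription factor, was at 11.13, 11.07 and 11.23 in lymphomas 6, 7 and 8 and 7.72, 8.40, 10.65, 9.47 and 10.32 in lymphomas 1 to 5 (difference 1.83, 95% interval 0.42 to 3.24, limma adjusted p = 0.469). The 2 lowest values were those of lymphomas 1 and 2, and without them the difference was 0.999.

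Tnfrsf19, a receptor of the tumor necrosis factor family that is a Wnt target in several tissues, was at 7.88, 8.44 and 8.46 in lymphomas 6, 7 and 8 and 7.57, 8.00, 6.34, 4.76 and 5.46 in lymphomas 1 to 5 (difference 1.84, limma adjusted p = 0.501). Lymphoma 2 exceeded lymphoma 6, while lymphomas 3, 4 and 5 lay below all others. Without lymphomas 1 and 2 the difference was 2.74 (limma adjusted p = 0.0813). A dimmer Tnfrsf19 probe set, above the filter percentile in all 8 lymphomas, did not show this difference. Its values overlapped, with means of 5.95 in Axin2-high and 5.88 in Axin2-low lymphomas (difference 0.06). A further Tnfrsf19 probe set, under that percentile in every lymphoma, had a difference of 0.08. Lef1, the related factor still present in Tcf1-/- thymocytes, was at 12.38, 12.91 and 12.37 in lymphomas 6, 7 and 8 and 11.78, 11.73, 12.64, 11.08 and 12.19 in lymphomas 1 to 5. Its difference was 0.67, 95% interval -0.10 to 1.44 (limma adjusted p = 0.633), and it was -0.20 on the other Lef1 probe set. Lymphoma 4 lay within the range of Tcf1+/- thymi (10.77 to 11.48) and the other 7 above it. Cd44, an adhesion receptor of early progenitors, was at 7.38, 5.33 and 7.22 in lymphomas 6, 7 and 8 and 5.72, 4.79, 9.98, 11.09 and 10.77 in lymphomas 1 to 5, so that lymphomas 1 and 2 lay with the Axin2-high set and lymphomas 3 to 5 well above (difference -1.82 with all 8 and -3.97 without lymphomas 1 and 2, limma adjusted p = 0.778 and 0.0812). Emp1, Id2, Znrf3 and Rnf43 differed by -1.07, 0.96, 0.76 and -0.64 with overlapping values. Id2, an inhibitor of E proteins, was lower in the Axin2-high set on another of its probe sets (-0.95), and the value of Znrf3, a ubiquitin ligase that removes Wnt receptors, changed sign without lymphomas 1 and 2 (-0.23). Nkd1 and Notum, both inhibitors induced by the pathway, were at 6.31 to 6.50 and 4.85 to 5.04 in the Axin2-high set and 6.02 to 6.75 and 4.87 to 5.32 in the Axin2-low set.

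Of 51 Wnt ligands, receptors and signal transducers tested, 0 passed in limma (smallest adjusted p = 0.402), and 2 higher and 2 lower had an unadjusted p under 0.05. Their median difference was -0.000462. The Wnt receptor Ryk was at 7.12, 9.76 and 9.35 in lymphomas 6, 7 and 8 and 6.02, 8.16, 5.27, 7.22 and 6.48 in lymphomas 1 to 5 (difference 2.12, limma adjusted p = 0.485), with lymphoma 6 below lymphomas 2 and 4. Tle4, a Groucho corepressor of TCF/LEF factors, was at 8.68, 8.54 and 9.38 in lymphomas 6, 7 and 8 and 7.62, 8.31, 6.56, 7.17 and 5.60 in lymphomas 1 to 5 (difference 1.81, 95% interval 0.57 to 3.05, limma adjusted p = 0.402), without overlap, although Tcf1-/- thymi without a tumor were as high (8.61 to 9.61). The receptor Fzd7 and the transducer Dvl1 differed by 0.84 and -0.75, and Dvl1 by -0.05 without lymphomas 1 and 2. Beta-catenin itself (Ctnnb1) was at 12.06 to 12.32 in the Axin2-high lymphomas, 10.93 to 10.96 in lymphomas 1 and 2 and 12.16 to 12.56 in lymphomas 3, 4 and 5.

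Notch signaling drives early T-cell commitment, and its genes were examined because activated Notch is common in T-cell lymphomas. Of 33 Notch receptors, ligands and targets tested, 0 passed in limma and 2 had an unadjusted p under 0.05, both higher, with a median difference of 0.05. Notch1 was at 12.53 to 13.09 in Axin2-high and 12.86 to 13.31 in Axin2-low lymphomas. The target Hes1, a repressor of the bHLH family, was at 10.20, 10.68 and 9.82 in lymphomas 6, 7 and 8 and 8.62, 9.18, 10.57, 7.10 and 10.54 in lymphomas 1 to 5 (difference 1.03, 95% interval -0.63 to 2.70), and lymphoma 4 lay below the other 7. The same lymphoma was lowest for Il2ra, the interleukin 2 receptor alpha chain (6.50, against 9.57 to 11.80 in the other 7). Heyl and the gamma-secretase subunit Ncstn differed by 1.29 and 0.87 (limma adjusted p = 0.664 and 0.535).

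Stage genes were compared because thymic lymphomas can carry the marks of different steps of T-cell development. Of 28 coreceptors and genes of the CD4+CD8+ double positive (DP) stage, 0 passed in limma, 1 higher and 1 lower had an unadjusted p under 0.05, and the median difference was -0.17, or -0.74 without lymphomas 1 and 2. Cd4 was at 7.29, 7.08 and 7.36 in lymphomas 6, 7 and 8 and 7.52, 7.29, 7.84, 9.15 and 10.87 in lymphomas 1 to 5, and was thus within 7.08 to 7.84 in 6 lymphomas and higher in lymphomas 4 and 5 (difference -1.29, 95% interval -2.97 to 0.39). Cd8a was lowest in lymphoma 7 (6.57) and at 9.56 to 11.97 in the other 7. The surface antigen gene Ly6d was likewise highest in lymphomas 4 and 5, with 12.74 and 12.44, against 6.69 to 9.11 in the other 6 (difference -2.41, limma adjusted p = 0.653). For both genes the Axin2-low lymphomas thus ranged over more than the difference between the sets. Egr1 differed by 1.22 (95% interval -1.91 to 4.35).

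Of 22 genes of early progenitors and the DN1 stage tested, 0 passed in limma, 1 higher and 1 lower had an unadjusted p under 0.05, and the median difference was -0.12. Besides Cd44, the stem cell factor receptor Kit was at 4.89, 4.86 and 5.26 in lymphomas 6, 7 and 8 and 5.68, 5.14, 5.90, 7.41 and 6.64 in lymphomas 1 to 5 (difference -1.15, limma adjusted p = 0.526), and the leukemia-associated factor Lyl1 was lower by overlapping values (difference -1.57), with lymphoma 2 at 10.48 and the other 7 at 6.04 to 7.93. Of 27 genes of the DN2 and DN3 stages, 0 passed and 1 had an unadjusted p under 0.05, lower, with a median difference of 0.04. Dntt, which adds bases at receptor gene joins, differed by -0.72 and Cd27 by 0.94.

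The list of gamma-delta and innate-like T-cell genes had the largest median difference of the lists of T-cell genes, 0.94 over 15 genes tested (0.88 without lymphomas 1 and 2). None passed in limma with all 8 lymphomas (smallest adjusted p = 0.281), but 5 had an unadjusted p under 0.05, all higher, and 2 did not overlap between the sets (13.3% of the list, beside 7.15% of all genes tested, of which 6.76% were higher at an unadjusted p under 0.05). Etv5, an ETS factor of interleukin 17-producing gamma-delta T cells, was at 10.05, 10.60 and 9.89 in lymphomas 6, 7 and 8 and 9.28, 8.12, 7.62, 4.69 and 5.10 in lymphomas 1 to 5. Its Axin2-low values thus covered a wide range, from lymphoma 4 to lymphoma 1, below a narrow Axin2-high range, and the difference was 3.22 (95% interval 0.99 to 5.44, limma adjusted p = 0.411). Etv5 was at 6.07 to 8.27 in Tcf1-/- thymi without a tumor and 5.01 to 6.41 in Tcf1+/- thymi. The interleukin 1 receptor Il1r1 was at 8.58, 8.77 and 8.45 in lymphomas 6, 7 and 8 and 6.90, 8.08, 6.34, 6.79 and 6.12 in lymphomas 1 to 5 (difference 1.76, limma adjusted p = 0.281), and passed without lymphomas 1 and 2, where it rose by 2.19 (adjusted p = 0.0291). Maf, a factor of the same cells, was at 8.78, 10.40 and 9.40 in lymphomas 6, 7 and 8 and 8.54, 6.76, 8.53, 9.24 and 6.61 in lymphomas 1 to 5 (difference 1.59, limma adjusted p = 0.542), with lymphoma 4 above lymphoma 6. The scavenger receptor Cd163l1 was low in lymphomas 3 and 5 (6.17 and 5.93) and at 9.82 to 10.57 in the other 6. In Tcf1-/- thymi without a tumor Cd163l1 was at 10.64 to 12.46, above all 3 Axin2-high lymphomas. Maf was there at 10.02 to 11.37, above lymphomas 6 and 8 and around lymphoma 7. Il1r1 was there at 7.74 to 8.12, below the Axin2-high set. Zbtb16, the defining factor of innate-like T cells, was at 5.38 to 5.79 in Axin2-high and 5.45 to 6.37 in Axin2-low lymphomas.

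Of 33 genes of CD3, the pre-TCR and proximal TCR signaling, 0 passed in limma and 3 had an unadjusted p under 0.05, all higher, with a median difference of 0.10. The CD3 chain Cd3d was at 13.94 to 13.99 in Axin2-high and 13.15 to 13.72 in Axin2-low lymphomas (difference 0.52, limma adjusted p = 0.511), a small difference without overlap. Rasgrp1, an activator of Ras downstream of the receptor, differed by 1.71, and lymphoma 5 was far below the others (6.27, against 8.73 to 11.24). The ubiquitin ligase Cblb, Ubash3a and Malt1 differed by 1.15, 0.94 and 0.93 with overlapping values, and the direction depended on the probe set. Other probe sets gave 0.59 and -0.63 for Cblb, -0.52 for Ubash3a and -0.38 and -0.91 for Malt1. Of 23 genes of mature T-cell egress and selection tested, 0 passed. An unadjusted p under 0.05 was reached by 4, all higher, beside 6.76% higher among all genes tested. The median difference was 0.37, or 0.11 without lymphomas 1 and 2. The chemokine receptor Ccr7 was at 7.08, 8.12 and 7.96 in lymphomas 6, 7 and 8 and 6.71, 5.65, 6.87, 7.03 and 6.31 in lymphomas 1 to 5 (difference 1.21, 95% interval 0.38 to 2.03, limma adjusted p = 0.402), without overlap, and the 9 tumor-free thymi were at 7.80 to 10.96. Cd53, a tetraspanin of leukocytes, was lowest in lymphomas 1 and 2 (8.16 and 8.72), and its difference of 1.84 was 0.77 without them. Klf2 and Gimap4 differed by 1.20 and 1.11.

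**Figure D4:**
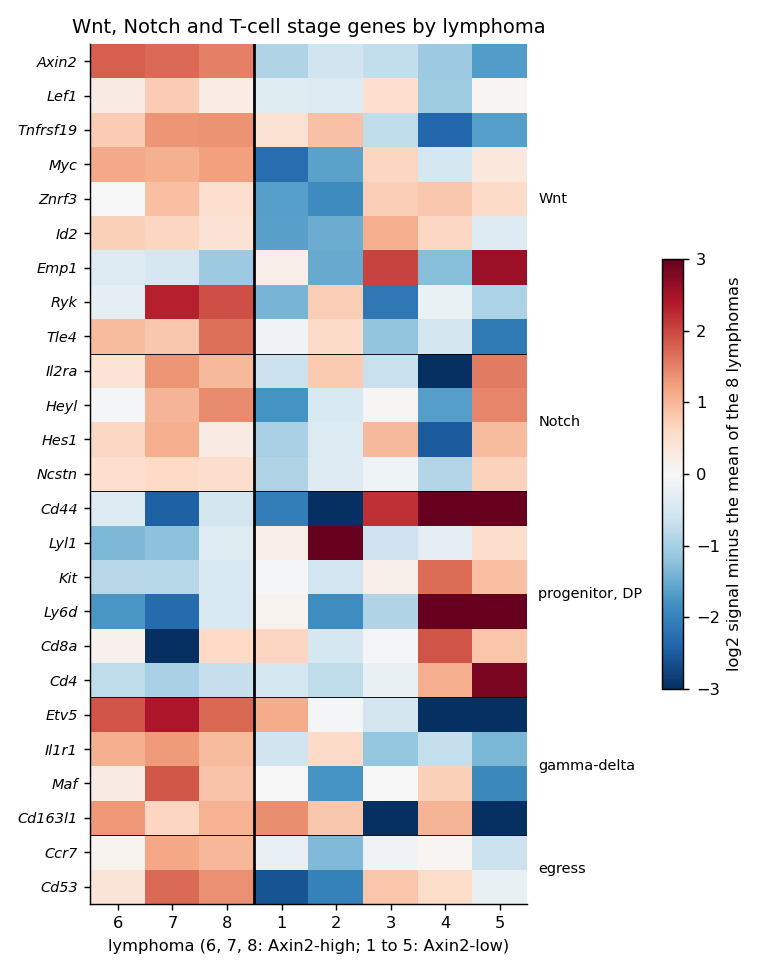
Log2 signal minus the mean of the 8 lymphomas, as colour from blue (-3 or less) to red (3 or more), for Wnt, Notch, stage, gamma-delta and egress genes on the y axis in the 8 lymphomas on the x axis, Axin2-high left of the line and Axin2-low right of it. Axin2 (which made the division), Myc, Tle4, Etv5, Il1r1 and Ccr7 separate the sets, whereas Cd44 and Ly6d vary mainly among the Axin2-low lymphomas.

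Of 26 T-cell leukemia oncogenes tested, 0 passed in limma, 1 higher and 1 lower had an unadjusted p under 0.05, and the median difference was -0.04. Lmo1, a LIM-domain factor, was at 7.56, 8.92 and 9.96 in lymphomas 6, 7 and 8 and 5.83, 8.69, 7.85, 5.27 and 8.53 in lymphomas 1 to 5 (difference 1.58, 95% interval -0.43 to 3.58), and lymphomas 2, 3 and 5 exceeded lymphoma 6. Ccnd2, a D cyclin, differed by 1.13, with lymphomas 7 and 4 the highest (9.72 and 9.19). Of 29 leukemia suppressors and chromatin regulators, 0 passed, and the median difference was 0.14. At an unadjusted p under 0.05, 4 were higher and 2 lower, beside 6.76% and 1.92% of all genes tested. Ikzf3, the lymphoid factor Aiolos, was at 10.51, 10.42 and 10.07 in lymphomas 6, 7 and 8 and 9.61, 9.48, 8.38, 9.20 and 8.69 in lymphomas 1 to 5, without overlap (difference 1.26, 95% interval 0.56 to 1.96, limma adjusted p = 0.331). Ikzf1 and Dnmt3b differed by 1.12 and 0.89, and Phf6 by -1.42, which was 0.07 with the mean of its probe sets and 1.13, without overlap, on another probe set.

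Of 32 cytokine receptors and signal regulators, 0 passed in limma, and the median difference was 0.07. At an unadjusted p under 0.05, 5 were higher and 1 lower, beside 6.76% and 1.92% of all genes tested. Pdgfrb, the receptor of platelet-derived growth factor, was uniformly high in the Axin2-high lymphomas, at 13.53, 13.61 and 13.66 in lymphomas 6, 7 and 8, and ranged widely in the Axin2-low ones, at 13.28, 12.09, 12.45, 8.81 and 11.06 in lymphomas 1 to 5 (difference 2.06, 95% interval 0.14 to 3.98, limma adjusted p = 0.54). Igf1r, whose signals pass through Irs1, was at 8.998, 9.26 and 7.65 in lymphomas 6, 7 and 8 and 8.49, 7.52, 7.19, 6.75 and 7.43 in lymphomas 1 to 5 (difference 1.16, limma adjusted p = 0.521), with lymphoma 1 above lymphoma 8. Igf1r has 2 further probe sets above the 40th percentile in all 8 lymphomas without overlap between the sets, with differences of 2.39 and 2.01, and 2 dimmer ones with overlap (-0.27 and 0.26). Of 31 chemokine receptors and adhesion molecules, 0 passed and 3 had an unadjusted p under 0.05, all higher, with a median difference of 0.03. The adhesion molecule Vcam1 was at 4.07 and 3.38 in lymphomas 1 and 2 and 7.22 to 9.56 in the other 6, and its difference of 2.58 was 0.97 without those 2. Epcam was at 7.82, 6.74 and 6.87 in lymphomas 6, 7 and 8 and 5.68, 5.45, 6.07, 6.67 and 5.59 in lymphomas 1 to 5 (difference 1.25, limma adjusted p = 0.377), while another Epcam probe set had a difference of -0.03.

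Markers of other cells of the thymus moved with the division in part, and their part in the results above was not tested. All 12 macrophage and monocyte markers tested had a difference above 0, as had 7736 of all 13447 genes tested. Their median was 1.08, and 1 was higher at an unadjusted p under 0.05, beside 6.76% of all genes tested. The summed log2 signal of the 14 measured was 12.91 to 13.80 in Axin2-high and 10.46 to 13.92 in Axin2-low lymphomas. Lymphomas 1 and 2 were the low ones (10.59 and 10.46), and the median difference was 0.38 without them. Mrc1, a mannose receptor of macrophages, was at 8.52, 7.96 and 6.76 in lymphomas 6, 7 and 8 and 5.15, 5.02, 7.13, 7.09 and 6.36 in lymphomas 1 to 5 (difference 1.60), the complement gene C1qc differed by 1.53, and Csf1r, the receptor of macrophage colony-stimulating factor, by 1.34.

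Of 10 fibroblast markers tested, 4 had an unadjusted p under 0.05, all higher, beside 6.76% higher among all genes tested. The median difference was 0.93. The summed signal of the 11 measured was 14.47 to 14.59 in Axin2-high and 13.23 to 14.17 in Axin2-low lymphomas and did not overlap, but this rested on Pdgfrb, and without it the sums were 13.31 to 13.66 and 12.87 to 13.75. Both sums include Thy1, which is also among the T-cell markers, so they do not measure fibroblasts alone. The share of Thy1 in them was not tested. Dcn, the matrix proteoglycan decorin, was at 9.60, 9.57 and 6.98 in lymphomas 6, 7 and 8 and 5.91, 5.85, 7.85, 4.33 and 7.19 in lymphomas 1 to 5 (difference 2.49, limma adjusted p = 0.472), with lymphomas 3 and 5 above lymphoma 8. The collagen gene Col1a2 was at 8.13, 9.31 and 8.79 in lymphomas 6, 7 and 8 and 6.06, 6.31, 8.20, 5.70 and 6.91 in lymphomas 1 to 5 (difference 2.11, limma adjusted p = 0.351), and lymphoma 3 exceeded lymphoma 6. Of 5 erythroid markers tested, 2 had an unadjusted p under 0.05, both higher, beside 6.76% higher among all genes tested. The sums of the 6 measured were 9.31 to 10.22 in Axin2-high and 8.47 to 9.16 in Axin2-low lymphomas. These sums include Alas2, the only 1 of the 5 without overlap between the sets, and their separation without it was not tested. Alas2, the first enzyme of heme synthesis in erythroid cells, was at 9.05, 9.73 and 7.83 in lymphomas 6, 7 and 8 and 5.45, 5.64, 6.64, 6.51 and 7.73 in lymphomas 1 to 5 (difference 2.48, limma adjusted p = 0.281), while the globin gene Hba-a1 was under the 40th percentile in all 8 lymphomas. B-cell markers were at 10.50 to 10.78 in Axin2-high and 10.29 to 11.10 in Axin2-low lymphomas, dendritic cell markers at 8.83 to 9.44 in Axin2-high and 8.81 to 9.49 in Axin2-low lymphomas, NK-cell markers at 12.61 to 13.93 in Axin2-high and 12.34 to 13.93 in Axin2-low lymphomas, thymic epithelial markers at 9.67 to 10.44 in Axin2-high and 9.36 to 10.75 in Axin2-low lymphomas and endothelial markers at 9.10 to 9.35 in Axin2-high and 8.75 to 9.12 in Axin2-low lymphomas, as summed log2 signals.

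Further named markers did not pass the test in limma. The B-cell adaptor Blnk differed by 1.02 and the B-cell receptor chain Cd79b by -0.93, Siglech and Zbtb46 of dendritic cells by -0.45 and -0.31, granzyme B (Gzmb) and perforin (Prf1) by 0.64 and -0.27, keratin 18 (Krt18) by 0.40, Pecam1 and Plvap of endothelium by 0.92 and 0.44, the erythroid anion exchanger Slc4a1 by 0.73 and, among T-cell markers, Cd3e by 0.60 and Cd247 by -0.53. Xcr1, Ncr1, Klre1, Enpep, Tie1, Tek, Emcn and Vwf of these lists were under the 40th percentile in every lymphoma.

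**Figure D5:**
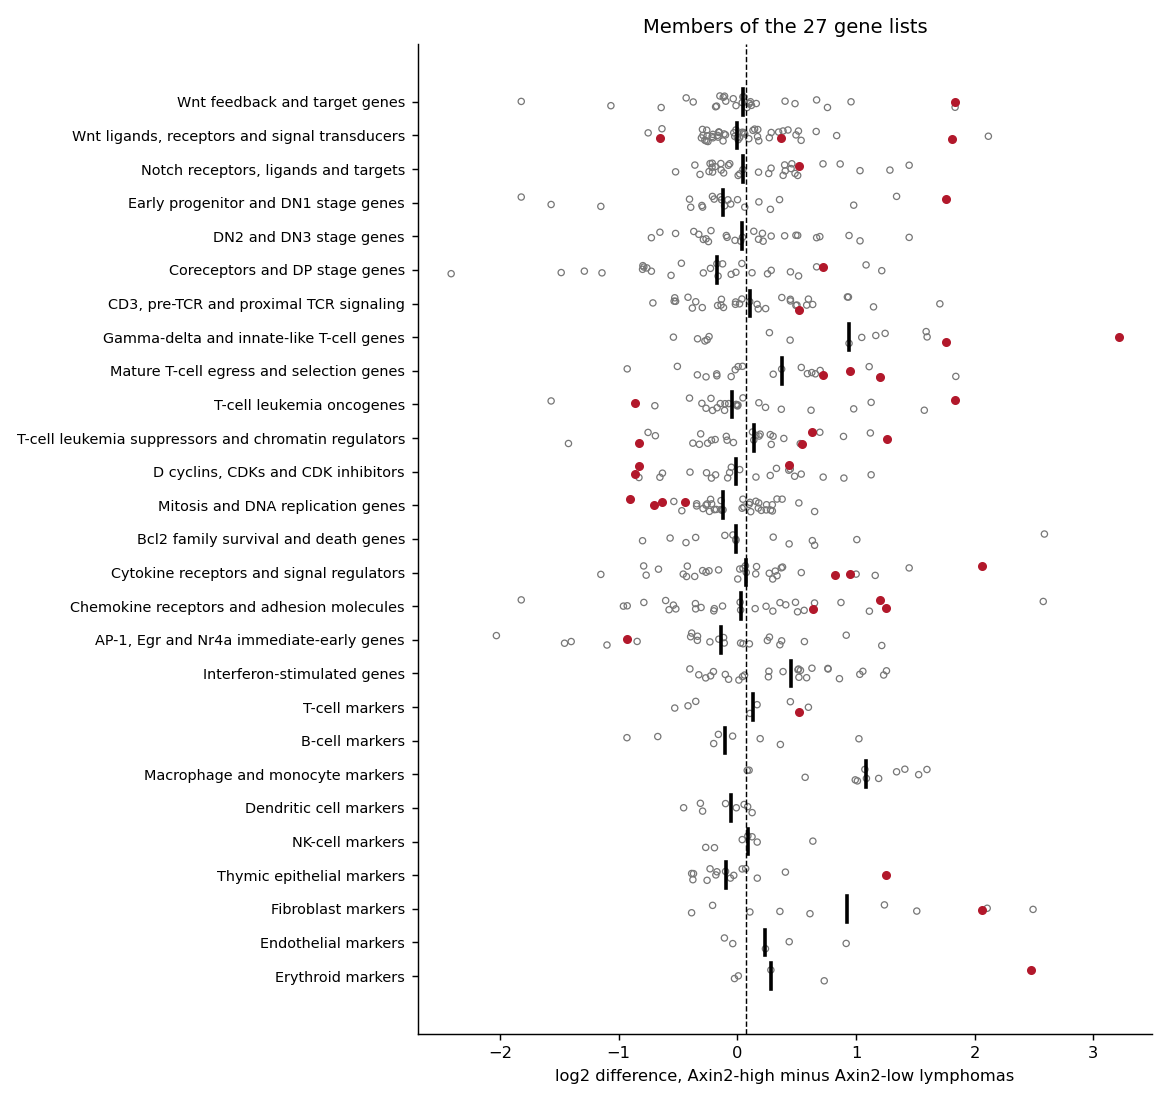
Log2 difference, Axin2-high minus Axin2-low, on the x axis for the members tested of the 27 gene lists on the y axis. Filled points are genes without overlap between the sets, open points overlap, vertical bars are the list medians and the dashed line is the median of all 13447 genes (0.07). Macrophage (1.08), gamma-delta (0.94) and fibroblast (0.93) lists have the highest medians, and no point belongs to a called gene.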

How the data were processed

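RNA from the thymus of 17 mice was hybridized to Affymetrix arrays, and the authors deposited log2 values per probe set from RMA, a method that makes arrays alike in distribution and so hides a shift common to most genes. The version of RMA is not given in the sources used here. Groups came from the sample titles. Of 45101 probe sets, 64 are controls, 34945 carry 1 gene symbol, 932 several and 9160 none, and the first were used. Where several matched 1 of the 18193 genes, the brightest on average across all 17 arrays stood for it. The test covered 13447 genes, those that exceeded the 40th percentile in 3 or more of the 8 lymphoma arrays, Axin2 left out.

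The 3 Axin2-high and 5 Axin2-low lymphomas were compared with limma 3.58.1 in R 4.3.3 (lmFit, eBayes), with Benjamini-Hochberg adjustment over all genes tested and a threshold of 0.05 on the adjusted p. The Axin2 threshold, the members, the 27 gene lists and the alternatives were chosen with earlier results of these data known. Named genes are the 15 highest and 15 lowest differences without overlap between the sets, called genes first and unnamed transcripts left out, the 8 largest differences of the Wnt target list and up to 4 of each other list, with others named after their values were seen as stated. A list is described by its counts and median and was not tested as a whole. Alternatives were the fit without lymphomas 1 and 2, their array set as a term, each lymphoma left out, all 17 arrays in 1 fit, other filters, probe sets, normalizations and variance models, Y-linked signal as a covariate (the mean of the 3 genes measured), an exact Mann-Whitney U test and an added difference of at least 1. The fit was tested on simulated data, with 200 changed genes among 13447. It called 0% of them at a log2 difference of 1, 74% at 2 and 90.5% at 3. A gene that was not called may thus still differ by about 1. Promoters are RefSeq's, build GRCm38.p6. Some genes are not reported here.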

Additional observations from a re-analysis of the deposited data

Results flagged for a closer look

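In 4 of the 124 combinations of gene and group examined, 1 mouse lay far from the others of its group by Dixon's test, which chance does in about 1 group of 20. Among the 5 Axin2-low lymphomas, lymphoma 1 had a Tktl1 signal of 6.13 against 4.35 to 4.81 in the other 4, lymphoma 5 had a Pbxip1 signal of 9.17 and a Camk1g signal of 8.57 against 7.57 to 7.87 and 6.22 to 6.40, and lymphoma 4 had a Ccnd2 signal of 9.19 against 5.68 to 6.36, all on the log2 scale.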

How the results depend on the processing

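With all 8 lymphomas 5 genes were called. Without lymphomas 1 and 2 there were 31 (19 higher, 12 lower), 4 of them among the 5, and with the array set as a term 71 (43 higher, 28 lower), including all 5. A fit of all 17 arrays called 81 (76 higher, 5 lower), array weights 16 and a variance trend with robust estimation 9, each including the 5. The exact Mann-Whitney U test called 0, with 961 genes at its smallest possible p of 0.0357, which could not pass the adjustment. Leaving out 1 lymphoma at a time gave 1 to 10 genes, and the other settings gave 4 to 7. The 5 called genes were higher in the Axin2-high set in each setting. Of 2204 values of the 111 named genes under the alternatives, 2110 kept their direction and their side of the threshold, 49 passed it newly, 26 no longer passed and 19 changed sign. The 26 lost calls all belong to the 5 called genes, since only a called gene can lose its call. For the other named genes, keeping their side means that they stayed uncalled, so the 2110 do not measure how stable the calls are. With the probe set of the largest interquartile range, Id2 changed to -0.95, Lef1 to -0.20, Malt1 to -0.38, Ikzf1 to -0.0757 and Cd247 to 0.0745, and with the mean of probe sets Malt1 to -0.12 and Phf6 to 0.0718. Without lymphomas 1 and 2 or with the array set as a term, Znrf3 changed to -0.23, Rbl2 to -0.72, Kif20a to -0.74 and Krt18 to -0.00419. Array weights gave -0.0952 for Kif20a, leaving out 1 lymphoma at a time gave -0.21 to 1.02 for Krt18 (-0.02 without lymphoma 5 and -0.21 without lymphoma 6), and the Y-linked covariate gave -0.00422 for Krt18. The causes of these changes were not tested. No paired analysis was possible because the comparison lies within the lymphoma group, where each mouse number occurs once. Only 3 Axin2-high arrays limit the precision.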

Other observations

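Of 24 D cyclins, CDKs and CDK inhibitors tested, 0 passed in limma, 1 higher and 2 lower had an unadjusted p under 0.05, and the median difference was -0.02 (-0.39 without lymphomas 1 and 2). Ccnd3, the D cyclin of the pre-TCR checkpoint, was at 11.11, 10.97 and 11.11 in lymphomas 6, 7 and 8 and 11.59, 11.57, 11.97, 11.999 and 12.50 in lymphomas 1 to 5, without overlap (difference -0.86, 95% interval -1.41 to -0.31, limma adjusted p = 0.377), with -1.81 and 0.38 on its other probe sets. Rb1, the retinoblastoma protein, was likewise at 9.33, 8.57 and 9.57 in lymphomas 6, 7 and 8 and 9.97, 9.62, 9.63, 10.57 and 10.14 in lymphomas 1 to 5 (difference -0.83), and its relative Rbl2 differed by 0.90. Of 39 mitosis and DNA replication genes, 0 passed, 2 had an unadjusted p under 0.05, both lower, and 4 did not overlap, all lower (10.3% of the list, beside 7.15% of all genes tested and 1.7% lower), with a median difference of -0.12. Tyms, Cenpf, Cenpe and Kif20a differed by -0.91, -0.70, -0.63 and 0.65.

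Of 14 Bcl2 family genes tested, 0 passed in limma and 1 had an unadjusted p under 0.05. This was Pmaip1, which encodes the death-promoting protein Noxa, at 7.89, 10.19 and 7.07 in lymphomas 6, 7 and 8 and 6.89, 7.61, 4.85, 4.91 and 4.73 in lymphomas 1 to 5 (difference 2.59, 95% interval 0.62 to 4.56, limma adjusted p = 0.459), with lymphoma 2 above lymphoma 8. Bak1, Bcl2l1 and Bcl2l2 differed by 1.01, -0.80 and 0.65. Of 24 immediate-early genes, 0 passed, and the median difference was -0.14 (0.10 without lymphomas 1 and 2). At an unadjusted p under 0.05, 1 was higher and 4 lower, beside 6.76% and 1.92% of all genes tested. Fos was at 11.02 and 10.56 in lymphomas 1 and 2 and 5.61 to 7.52 in the other 6, so that its difference of -2.03 was -0.42 without them. Jund was highest in the same lymphomas (difference -1.46), and Klf4 was highest in lymphoma 5 (9.77, difference -1.40). Of 26 interferon-stimulated genes, 0 passed and 1 had an unadjusted p under 0.05, with a median difference of 0.45 (0.15 without lymphomas 1 and 2). Oasl2, Ifih1, Rtp4 and Gbp2 differed by 1.26, 1.23, 1.06 and 1.03.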
